A study of Mus musculus with 6 samples.

Results

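The genes described here are the protein-coding members of the TGF-beta and BMP signalling families, 43 of the 14222 protein-coding genes listed for this series (18908 genes in all). They were chosen by name: a symbol starting with Bmp and a digit, Bmpr, Smad and a digit, Smurf, Tgfb, Inhb, Acvr, Grem or Fstl, with Id1 to Id4, Ltbp1 to Ltbp4 and Fst. Of these, 5 match by name only: Bmp1, Bmp2k, Tgfbi, Tgfb1i1 and Tgfbrap1 are neither ligand, receptor, carrier nor SMAD, and they are described last.

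Messenger RNA was sequenced from 6 mouse libraries, 3 labelled as given a control shRNA and 3 as given an shRNA against VprBP, a short hairpin RNA meant to lower the transcript of that gene. The mouse gene is listed as Dcaf1, and its protein recruits substrates to a cullin ubiquitin ligase. Both groups are labelled bone-marrow-derived macrophages, with wild type as the genotype of the controls and VprBP1 knockdown as that of the others, and the series concerns osteoclast differentiation. No source used here gives the strain, the age, the days in culture, the hairpins or how they were delivered. Nor do they say if replicates are different mice, cultures or repeats, so the p-values cover the spread among these 6 libraries, possibly technical alone.

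Total counts ran from 16839445 to 21838875 per library, and 17679 to 17940 genes had a count in a library. The labelled cell type was not borne out by its markers. Of 22 macrophage genes, 14 have no row in the table used here, Csf1r, Adgre1, Itgam and Spi1 among them, and the 8 others summed to 37.3 to 40.8 CPM (control-labelled) and 20.7 to 21.6 CPM (VprBP-labelled). Cd68 made up 31.6 and 1.01 CPM of that sum on average, and the sum of the other 7 ran the other way, from 6.93 to 8.70 CPM and from 19.5 to 20.9 CPM. Of 5 tested macrophage genes, Cd68 was lower, Mertk, Lyz2 and Laptm5 (which passed the count filter through the VprBP-labelled libraries alone) were higher and Cd14 was not called. CPM, the unit of all levels here, is a library's count scaled to a common depth with TMM factors. All 11 pigment cell genes have a row and summed to 21451 to 21837 and 19788 to 20290 CPM. Single genes moved both ways, however, with 5 higher, 5 lower and 1 not called. Over all tested genes, 37.9% were higher and 37% lower. Tyr, Sox10 and Mitf were higher (log2 differences 1.92, 1.81 and 1.78), and Slc45a2, Pmel and Mlana lower (-1.93, -1.48 and -1.42). Dcaf1 itself stood at 42.2, 43.5 and 40.7 CPM (control-labelled) and 35.96, 34.6 and 36.8 CPM (VprBP-labelled), 1.18-fold lower (log2 difference -0.24, SE 0.07, edgeR adjusted p = 0.00625), and with scaling by library size only it was not called (log2 difference -0.12, edgeR adjusted p = 0.137, where the 13 alternatives ran from 0.00327 to 0.137). The groups are called control-labelled and VprBP-labelled below, and no difference is ascribed to loss of VprBP.

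TGF-beta, activin and BMP ligands are secreted dimers that bring together a type II and a type I receptor serine kinase on the cell surface. The type I receptor then phosphorylates SMAD proteins, SMAD2 and SMAD3 in the TGF-beta and activin branch and SMAD1, SMAD5 and SMAD9 in the BMP branch, which join SMAD4 and act on genes in the nucleus. SMAD6, SMAD7 and the SMURF ubiquitin ligases restrain the receptors, and the ID genes are classic BMP targets. TGF-beta is known to restrain inflammatory activation in macrophages and to hold melanocyte stem cells in quiescence.

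The RefSeq table of promoters (build GRCm38.p6) held entries for 34 of the 43 genes, in 42 windows, and none for Acvrl1, Bmp1, Id1, Smad2, Smad4, Smad7, Tgfb1i1, Tgfb3 and Tgfbr3. The 250 bases before the annotated start are shown for the carriers of latent TGF-beta and the TGF-beta type II receptor. These genes were chosen for being at least 2-fold higher together in the VprBP-labelled libraries. Smad3 and Smad6 were at least 2-fold higher too, and their windows, not shown, hold none of the sites marked below. Acvr1, Fstl1, Fstl4, Id2, Id3, Tgfb2 and Tgfbi were as well, but their windows hold annotated exon bases and are not shown. Most of these hold a marked site, and the Acvr1 and Fstl1 windows hold none. A further Ltbp4 window, chr7:27337613-27337862, holds none either. Capitals mark the SMAD box CAGAC or GTCTG, the GC-rich SMAD site GGCGCC and the cyclic AMP response element TGACGTCA, searched on both strands.
Ltbp1, the upstream window of 2, chr17:75005279-75005528, plus strand: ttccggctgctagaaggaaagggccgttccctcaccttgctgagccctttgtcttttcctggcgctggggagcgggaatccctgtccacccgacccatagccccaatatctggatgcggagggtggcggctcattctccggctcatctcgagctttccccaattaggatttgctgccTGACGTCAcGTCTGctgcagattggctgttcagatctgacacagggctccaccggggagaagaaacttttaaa
Ltbp3, chr19:5740650-5740899, plus strand: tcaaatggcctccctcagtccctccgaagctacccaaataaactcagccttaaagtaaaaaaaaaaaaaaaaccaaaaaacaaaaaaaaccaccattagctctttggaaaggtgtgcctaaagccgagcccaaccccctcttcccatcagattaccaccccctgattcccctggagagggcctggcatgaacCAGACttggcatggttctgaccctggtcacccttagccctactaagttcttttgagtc
Ltbp4, 1 of its 3 windows, chr7:27333664-27333913, minus strand: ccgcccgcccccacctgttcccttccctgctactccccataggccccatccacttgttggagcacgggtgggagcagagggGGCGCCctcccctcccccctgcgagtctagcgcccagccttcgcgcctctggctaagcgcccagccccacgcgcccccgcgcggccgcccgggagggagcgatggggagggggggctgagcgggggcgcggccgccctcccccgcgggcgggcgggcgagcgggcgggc
Tgfbr2, chr9:116175364-116175613, minus strand: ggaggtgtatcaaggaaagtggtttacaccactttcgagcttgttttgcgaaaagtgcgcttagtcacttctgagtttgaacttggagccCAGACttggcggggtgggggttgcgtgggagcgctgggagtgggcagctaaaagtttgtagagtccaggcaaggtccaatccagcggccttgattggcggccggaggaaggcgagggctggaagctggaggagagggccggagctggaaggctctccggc

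The windows shown hold no annotated exon. In GENCODE M21 (GRCm38), Ltbp1 spans 75005568 to 75392512 on chromosome 17, Ltbp3 5740904 to 5758532 on chromosome 19 and Tgfbr2 116084293 to 116175360 on chromosome 9, so that their windows lie just before the gene. Ltbp4 spans 27305136 to 27337692 on chromosome 7, and its window lies within an intron of the gene as annotated there. In these letters the SMAD box of Ltbp1 begins 64 bases before the start, next to a cyclic AMP response element beginning at 73 bases. The SMAD boxes of Ltbp3 and Tgfbr2 begin at 58 and 160 bases, and the GC-rich site of Ltbp4 at 169 bases. Matches of this kind are common. The SMAD box lay in 19 of the 42 windows (45.2%) and in 42.2% of all 32851 windows of that length in the table, noncoding genes included. The palindromic SMAD site GTCTAGAC lay in 0 of the 42 and in 0.167% of all windows, and the E-box CACGTG, a site read by MITF and MYC among others, in 2 (4.76%) against 6.02%. The cyclic AMP response element lay in 2 windows (4.76%) against 1.55%. GGCGCC was found in 12 windows (28.6%) against 9.59%, and the windows of these genes were also richer in G and C, with a median of 67.4% against 52.4%. Overlapping windows of Ltbp4 hold the same GGCGCC, counted in each, and genes with several windows weigh more in these shares. The sites are matches of letters, not measured binding.

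Most of the family's transcripts were more abundant in VprBP-labelled than in control-labelled libraries. Of the 43, 39 had enough counts to be tested, with 25 called higher, 7 lower and 7 in neither direction at an edgeR adjusted p below 0.05. Over all 14641 tested genes, 75% were called, 37.9% higher and 37% lower, so the share of family members called in either direction (82.1%) was near the background, while the split was 64.1% higher and 17.9% lower. Without the 5 genes that match by name only, 23 of 34 tested were higher, 5 lower and 6 not called. At least 2-fold, 15 members were higher, where the background is 19.4% of tested genes, and 2 were lower, where it is 14.2%. The median log2 difference was 0.52 over the 39 members and -0.01 over all tested genes. Values of the 2 groups did not overlap for 34 of the 39, with a background of 77.2% (26 with VprBP-labelled values above, background 39%, and 8 below, background 38.2%). Tgfbi passed the filter on low counts through the VprBP-labelled libraries alone, so it could only come out higher, and it is among the higher members counted above.

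Together the 43 genes summed to 1828 ± 20.95 CPM (control-labelled) and 3300 ± 116 CPM (VprBP-labelled; SD, n = 3 each, as for every ± below), from 0.174% to 0.177% of all counts in the first group and from 0.336% to 0.357% in the second. Ltbp3 and Ltbp4 alone made up 24.4% ± 0.586 and 38.2% ± 1.87 of that sum. The other 41 genes summed to 1381 ± 23.2 and 2037 ± 35.5 CPM. In bulk samples, fewer cells of a type and less RNA per cell cannot be told apart, and this holds for every level below. Where 3 values are given for each group, the groups did not overlap unless an overlap is stated.

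**Figure D1:**
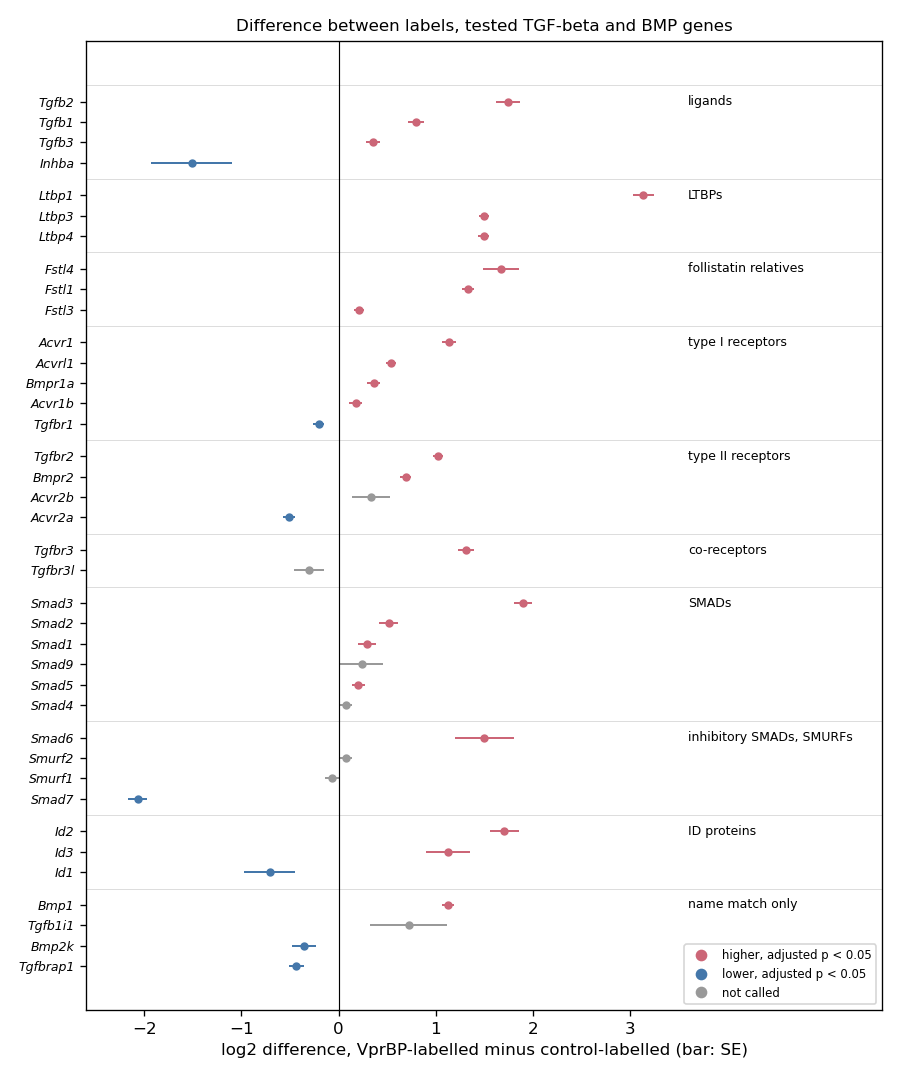
Log2 difference between VprBP-labelled and control-labelled libraries (x axis, bar: SE) for 38 of the 39 tested genes, grouped by role. Tgfbi is left out because its control-labelled counts are 0. Ltbp1 lies farthest to the right at 3.14 and Smad7 farthest to the left at -2.07.

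Transcripts of all 3 TGF-beta isoforms were more abundant in VprBP-labelled libraries, whereas the activin subunit Inhba was lower. Tgfb1, the isoform most used by immune cells, stood at 23.5, 20.5 and 23.2 CPM (control-labelled) and 40.4, 36.6 and 40.05 CPM (VprBP-labelled). It was 1.74-fold higher (log2 difference 0.80, SE 0.09, edgeR adjusted p = 1.32e-07). Tgfb2 stood at 6.56, 7.93 and 7.58 CPM (control-labelled) and 22.1, 26.2 and 25.3 CPM (VprBP-labelled), and its 3 VprBP-labelled values all lay far above the controls. It was 3.35-fold higher (log2 difference 1.74, SE 0.12, edgeR adjusted p = 3.69e-10). Tgfb3 stood at 56.8, 48.8 and 56.1 CPM (control-labelled) and 69.3, 66.4 and 71.4 CPM (VprBP-labelled), groups that were apart by less. It was 1.28-fold higher (log2 difference 0.36, SE 0.07, edgeR adjusted p = 0.000138). Of its exon length, 7.60% is shared with Gm48008 and 4.82% with Gm37804, both on the other strand and without a row. Inhba, which encodes the beta A chain of activin A, was scarce and went down, from 1.87, 2.60 and 2.27 CPM (control-labelled) to 0.485, 0.756 and 1.10 CPM (VprBP-labelled). It was 2.85-fold lower (log2 difference -1.51, SE 0.42, edgeR adjusted p = 0.00323), on 119 counts in the control-labelled and 44 in the VprBP-labelled libraries. Inhbe, another activin chain, fell under the count filter (0.330 ± 0.198 and 0.246 ± 0.262 CPM), with overlapping groups.

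Levels are compared between genes per kilobase of merged exon. Merged exons are all annotated exons of a gene, not the transcripts present, so such comparisons are approximate. On this scale, Tgfb3 was the most abundant of these ligands in both groups. Its level was 15.9 ± 1.30 (control-labelled) and 20.4 ± 0.752 (VprBP-labelled) CPM per kb. Tgfb1 followed at 4.45 ± 0.331 and 7.74 ± 0.413 CPM per kb, and Tgfb2 at 1.27 ± 0.123 and 4.24 ± 0.373 CPM per kb. The share of Tgfb2 in the sum of the 3 genes was 5.01%, 6.89% and 5.82% in the control-labelled and 11.8%, 14.4% and 13.1% in the VprBP-labelled libraries. That of Tgfb1 went from 20.5% ± 0.111 to 23.9% ± 0.835, and that of Tgfb3 from 73.5% ± 0.851 to 63.0% ± 0.485. Between 3 and 3 libraries an exact test cannot go below p = 0.1, so these shares are given as values.

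BMP ligands were all but unmeasured. Bmp8a was the single BMP ligand with a row, at 0.372 ± 0.198 CPM (control-labelled) and 0.498 ± 0.379 CPM (VprBP-labelled), too low to be tested and with overlapping groups. Bmp2, Bmp3, Bmp4, Bmp5, Bmp6, Bmp7 and Bmp8b have no row in the table used here, whose lowest listed total was 10 counts over the 6 libraries. Neither have Inhbb, Inhbc, Bmpr1b, Grem1, Fst, Fstl5 and Id4. Genes with a count of 0 in a library can have stood at up to 0.144 to 0.186 CPM there, taken as 3 counts, a floor that covers counting error only.

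Latent TGF-beta binding proteins hold the inactive ligand in the matrix, and the 3 that were tested were all more abundant in VprBP-labelled libraries. Ltbp1 stood at 5.65, 6.19 and 7.52 CPM (control-labelled) and 52.1, 56.5 and 60.9 CPM (VprBP-labelled). It was 8.80-fold higher (log2 difference 3.14, SE 0.11, edgeR adjusted p = 1.41e-14), a larger change than 94.9% of tested genes. Ltbp3, which per length had the highest level of all 43 genes in the VprBP-labelled libraries, stood at 275, 294 and 298 CPM (control-labelled) and 892, 770.3 and 796 CPM (VprBP-labelled), far above the controls in each. It was 2.83-fold higher (log2 difference 1.50, SE 0.05, edgeR adjusted p = 1.87e-14). Ltbp4 was higher by a similar fold, from 161, 160.2 and 150.0 CPM (control-labelled) to 487, 410.5 and 431 CPM (VprBP-labelled). It was 2.82-fold higher (log2 difference 1.49, SE 0.06, edgeR adjusted p = 7.16e-14). Ltbp2, which does not bind latent TGF-beta, was not tested (0.337 ± 0.219 and 0.765 ± 0.351 CPM).

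Per kilobase of exon, Ltbp3 stood at 31.9 ± 1.35 and 90.3 ± 7.05 CPM per kb (control-labelled, then VprBP-labelled) and Ltbp4 at 24.3 ± 0.941 and 68.5 ± 6.13 CPM per kb, against 0.604 ± 0.0902 and 5.29 ± 0.410 CPM per kb for Ltbp1. Ltbp3 made up 56.1% ± 1.76 and 55.0% ± 0.214 of the LTBP sum, a difference within the spread between libraries. The Ltbp1 share went from 1.06% ± 0.155 to 3.24% ± 0.447. Counts per gene do not separate the long and short forms of Ltbp1, which start at different promoters.

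Secreted follistatin relatives were higher as well. Fstl1, a secreted glycoprotein of mesenchymal cells, stood at 60.1, 54.7 and 52.1 CPM (control-labelled) and 138, 148 and 136 CPM (VprBP-labelled). It was 2.53-fold higher (log2 difference 1.34, SE 0.06, edgeR adjusted p = 9.11e-13). Fstl3, an activin-binding protein, stood at 94.2, 89.02 and 95.1 CPM (control-labelled) and 112, 106 and 104 CPM (VprBP-labelled), so that the 2 groups were separate but close. It was 1.16-fold higher (log2 difference 0.21, SE 0.05, edgeR adjusted p = 0.00189). The exons of Fstl3 overlap those of Prss57 on the other strand over 47.3% of their length. Prss57 has no row, and with the strand setting not given, reads from the 2 cannot be told apart. Fstl4 rose from 2.78, 2.79 and 2.75 CPM (control-labelled) to 8.73, 9.24 and 8.60 CPM (VprBP-labelled), and was 3.19-fold higher (log2 difference 1.67, SE 0.18, edgeR adjusted p = 1.93e-07).

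**Figure D2:**
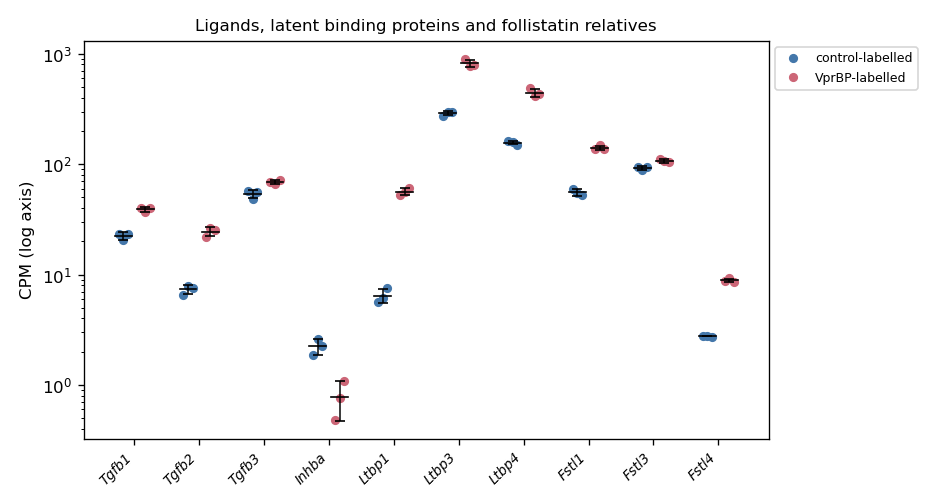
CPM per library (points, log axis) with the group mean and SD (bars) for ligands, latent binding proteins and follistatin relatives. The VprBP-labelled points lie above all control-labelled points for each gene except Inhba, where they lie below.

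Most type I receptors were somewhat more abundant in VprBP-labelled libraries, and the TGF-beta type I receptor was slightly lower. Acvr1, a BMP type I receptor, stood at 37.8, 35.7 and 37.8 CPM (control-labelled) and 83.1, 88.6 and 74.3 CPM (VprBP-labelled) with a wide gap. It was 2.21-fold higher (log2 difference 1.14, SE 0.07, edgeR adjusted p = 8.31e-11). Acvrl1, best known as the endothelial receptor of this class, stood at 108, 102 and 107 CPM (control-labelled) and 159.8, 145 and 157 CPM (VprBP-labelled). It was 1.46-fold higher (log2 difference 0.54, SE 0.05, edgeR adjusted p = 3.94e-08). Bmpr1a, the main BMP type I receptor of many tissues, stood at 91.7, 100.2 and 79.6 CPM (control-labelled) and 113, 119 and 116 CPM (VprBP-labelled), with control-labelled library 3 the lowest. It was 1.28-fold higher (log2 difference 0.36, SE 0.07, edgeR adjusted p = 0.000114). Tgfbr1, through which TGF-beta signals, stood at 63.9, 64.4 and 63.3 CPM (control-labelled) and 54.5, 56.7 and 55.2 CPM (VprBP-labelled). It was 1.15-fold lower (log2 difference -0.20, SE 0.06, edgeR adjusted p = 0.00473), and with scaling by library size only it was not called (log2 difference -0.09, edgeR adjusted p = 0.185, the highest of the 13 alternatives, which start at 0.00211).

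Acvr1b, the activin type I receptor, stood at 49.9, 43.5 and 46.6 CPM (control-labelled) and 54.2, 53.6 and 50.6 CPM (VprBP-labelled), with a narrow gap between the groups. It was 1.13-fold higher (log2 difference 0.18, SE 0.07, edgeR adjusted p = 0.0300). This call was lost with upper quartile scaling and without control-labelled library 2 or 3 or VprBP-labelled library 1 or 2 (edgeR adjusted p up to 0.178, and from 0.00104 over the 13 alternatives). Acvr1c had 8 counts (control-labelled) and 32 (VprBP-labelled) in all and was not tested. Per kilobase, Acvrl1 was the most abundant type I receptor, at 24.7 ± 0.764 and 36.0 ± 1.87 CPM per kb, or 36.9% ± 1.21 and 39.3% ± 2.04 of the sum of the 6. Tgfbr1 took 14.6% ± 0.297 of that sum in the control-labelled and 9.24% ± 0.262 in the VprBP-labelled libraries, while Acvr1 took 11.5% ± 0.437 and 18.5% ± 1.46.

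Type II receptors, which bind the ligand first, split in both directions. Tgfbr2, the TGF-beta type II receptor, stood at 61.1, 63.7 and 61.97 CPM (control-labelled) and 124, 129.9 and 126 CPM (VprBP-labelled), tight groups that were far apart. It was 2.03-fold higher (log2 difference 1.02, SE 0.05, edgeR adjusted p = 4.96e-12). Bmpr2, the BMP type II receptor, stood at 152, 149.9 and 135 CPM (control-labelled) and 226, 251 and 228 CPM (VprBP-labelled). It was 1.61-fold higher (log2 difference 0.69, SE 0.06, edgeR adjusted p = 2.98e-09). Acvr2a, an activin type II receptor, went the other way at 61.8, 63.7 and 57.6 CPM (control-labelled) and 41.9, 43.3 and 43.4 CPM (VprBP-labelled). It was 1.42-fold lower (log2 difference -0.51, SE 0.07, edgeR adjusted p = 1.49e-06), with 7.84% of its exon length shared with Orc4 on the other strand. Acvr2b was not called (5.24 ± 1.18 and 6.55 ± 0.327 CPM, edgeR adjusted p = 0.137), but it was called higher without control-labelled library 2, its highest control (log2 difference 0.51, edgeR adjusted p = 0.0385), and with scaling by library size only (0.45, edgeR adjusted p = 0.0487). Over the 13 alternatives its adjusted p ran from 0.0385 to 0.408.

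Per kilobase of merged exon, the order of the type II receptors differed between the groups. In CPM, not divided by length, Bmpr2 was highest in both (145 ± 9.35 control-labelled and 235 ± 13.8 VprBP-labelled), so the order depends on the lengths used. Per kilobase, Acvr2a was highest in the control-labelled libraries, at 10.7 ± 0.553 CPM per kb, ahead of Bmpr2 (8.09 ± 0.520) and Tgfbr2 (7.60 ± 0.162), which lay within their spread of each other. In the VprBP-labelled libraries Tgfbr2 was highest at 15.4 ± 0.382 CPM per kb, then Bmpr2 at 13.1 ± 0.770 and Acvr2a at 7.54 ± 0.142. The share of Tgfbr2 went from 26.8%, 26.8% and 28.7% of the 4 genes to 41.1%, 40.6% and 41.2%, and that of Acvr2a from 39.0%, 38.6% and 38.3% to 20.03%, 19.5% and 20.5%.

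Of the co-receptors, Tgfbr3 (betaglycan), which presents TGF-beta ligands, TGFB2 above all, to the type II receptor, stood at 33.01, 29.9 and 25.8 CPM (control-labelled) and 77.3, 74.4 and 69.1 CPM (VprBP-labelled). It was 2.48-fold higher (log2 difference 1.31, SE 0.08, edgeR adjusted p = 8.52e-11). Tgfbr3l, a related co-receptor, was not called, at 9.30 ± 0.818 and 7.52 ± 0.970 CPM (edgeR adjusted p = 0.0858). Its reads are uncertain, since 52.2% of its exon length is shared on the same strand with the listed gene Gm49320 and all 6 of its values have fractions.

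**Figure D3:**
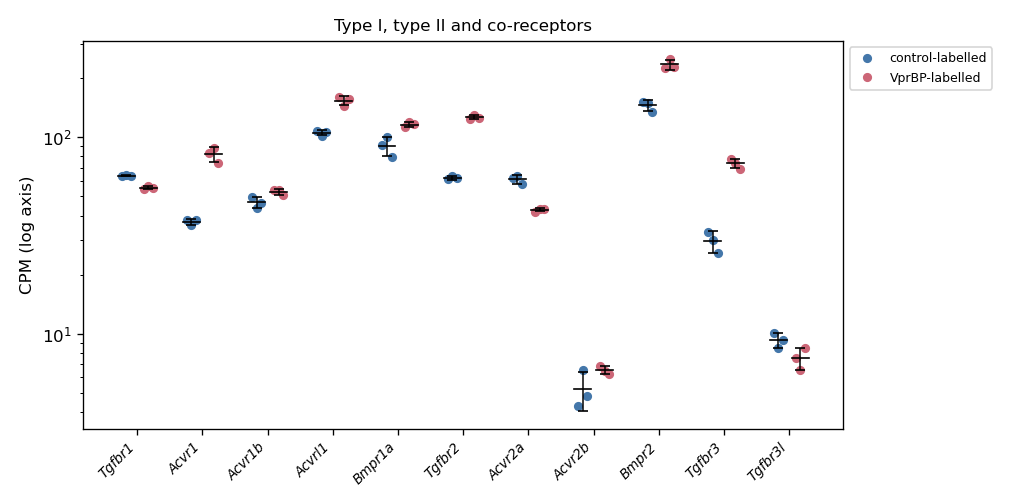
CPM per library (points, log axis) with the group mean and SD (bars) for 11 receptor genes. VprBP-labelled points lie above the controls for Acvr1, Acvr1b, Acvrl1, Bmpr1a, Tgfbr2, Bmpr2 and Tgfbr3 and below them for Tgfbr1, Acvr2a and Tgfbr3l, and the groups overlap for Acvr2b.

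Among the SMADs that carry the signal, Smad3 had the largest log2 difference of the 6. Smad3 stood at 15.5, 18.5 and 14.4 CPM (control-labelled) and 65.1, 59.2 and 56.3 CPM (VprBP-labelled), all far above the controls. It was 3.74-fold higher (log2 difference 1.90, SE 0.09, edgeR adjusted p = 2.37e-12). Smad2, the other SMAD of the TGF-beta branch, stood at 18.9, 17.5 and 17.1 CPM (control-labelled) and 23.5, 25.9 and 27.4 CPM (VprBP-labelled). It was 1.43-fold higher (log2 difference 0.52, SE 0.10, edgeR adjusted p = 0.000111). Per kilobase, Smad3 made up 56.4%, 62.6% and 57.2% of the sum of both genes in the control-labelled and 81.5%, 78.3% and 76.5% in the VprBP-labelled libraries.

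SMADs of the BMP branch moved little. Smad1 stood at 19.6, 20.1 and 21.4 CPM (control-labelled) and 25.7, 25.2 and 23.9 CPM (VprBP-labelled), and was 1.23-fold higher (log2 difference 0.29, SE 0.09, edgeR adjusted p = 0.00723). Smad5, the most abundant of the 3 per kilobase (8.20 ± 0.480 and 9.45 ± 0.697 CPM per kb), stood at 62.6, 63.2 and 56.8 CPM (control-labelled) and 68.5, 75.9 and 65.9 CPM (VprBP-labelled). It was 1.15-fold higher (log2 difference 0.20, SE 0.07, edgeR adjusted p = 0.0124), a call lost without control-labelled library 3 or VprBP-labelled library 2 (edgeR adjusted p = 0.0865 and 0.0740, with 0.000370 to 0.0865 over the 13 alternatives). Smad9 was low and not called (4.72 ± 0.514 and 5.56 ± 1.37 CPM, edgeR adjusted p = 0.332). The shares of Smad1, Smad5 and Smad9 in their sum were 26.4% ± 1.70, 66.5% ± 2.62 and 7.14% ± 0.928 in the control-labelled and 27.6% ± 1.07, 65.3% ± 1.91 and 7.13% ± 1.53 in the VprBP-labelled libraries, each within the spread between libraries.

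Smad4, the partner shared by both branches, stood at 54.5, 51.9 and 51.1 CPM (control-labelled) and 55.6, 55.1 and 55.5 CPM (VprBP-labelled). It was not called (log2 difference 0.08, SE 0.06, edgeR adjusted p = 0.274), although its groups did not overlap. With scaling by library size only it was called higher (log2 difference 0.19, edgeR adjusted p = 0.00952). Over the 13 alternatives its adjusted p ran from 0.00952 to 0.573.

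The inhibitory SMADs went in opposite directions. Smad7, a feedback inhibitor that TGF-beta and BMP signals induce, stood at 45.7, 41.7 and 44.2 CPM (control-labelled) and 11.5, 9.88 and 9.96 CPM (VprBP-labelled), a wide gap. It was 4.20-fold lower (log2 difference -2.07, SE 0.09, edgeR adjusted p = 7.38e-13), a larger change than 88.3% of tested genes. Smad6, the inhibitor that acts mainly in the BMP branch, was scarce and stood at 1.63, 1.49 and 0.955 CPM (control-labelled) and 4.21, 3.94 and 3.49 CPM (VprBP-labelled). It was 2.83-fold higher (log2 difference 1.50, SE 0.30, edgeR adjusted p = 0.000223). Smad6 made up 4.79%, 4.79% and 2.96% of the per-kilobase sum of the pair in the control-labelled and 34.1%, 36.0% and 33.1% in the VprBP-labelled libraries. That sum itself was 9.69 to 10.6 CPM per kb in the first group and 3.29 to 3.85 CPM per kb in the second.

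The SMURF ubiquitin ligases, which work with the inhibitory SMADs on receptors, were near level. Smurf1 stood at 38.7, 39.1 and 41.7 CPM (control-labelled) and 41.2, 37.8 and 35.3 CPM (VprBP-labelled), and the groups overlapped (log2 difference -0.06, SE 0.08, edgeR adjusted p = 0.465). With scaling by library size only the sign of this difference turned (0.05). Smurf2 stood at 53.3, 54.2 and 50.3 CPM (control-labelled) and 54.1, 58.3 and 53.8 CPM (VprBP-labelled), overlapping as well (log2 difference 0.07, SE 0.07, edgeR adjusted p = 0.307). It was called higher with scaling by library size only (0.19, edgeR adjusted p = 0.0133, the smallest of its 13 alternatives, which ran up to 0.706).

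ID proteins, which block basic helix-loop-helix transcription factors, did not move as a set. Id2 stood at 7.37, 4.83 and 6.92 CPM (control-labelled) and 18.4, 22.5 and 21.95 CPM (VprBP-labelled), well apart. It was 3.26-fold higher (log2 difference 1.71, SE 0.15, edgeR adjusted p = 8.75e-09). Id3 stood at 3.40, 2.91 and 3.94 CPM (control-labelled) and 10.1, 6.26 and 6.10 CPM (VprBP-labelled), with VprBP-labelled library 1 the highest. It was 2.19-fold higher (log2 difference 1.13, SE 0.23, edgeR adjusted p = 0.000254). Id1 lay lower, at 3.88, 5.64 and 4.06 CPM (control-labelled) and 3.45, 2.32 and 2.50 CPM (VprBP-labelled), in groups that did not overlap but came close (3.88 against 3.45 CPM). It was 1.63-fold lower (log2 difference -0.71, SE 0.26, edgeR adjusted p = 0.0213). The Id1 call was lost without control-labelled library 2, VprBP-labelled library 2 or 3, or with scaling by library size only (edgeR adjusted p up to 0.119, and from 0.0126 over the 13 alternatives). Per kilobase, Id1 made up 46.3% ± 9.63 of the sum of the 3 in the control-labelled and 15.6% ± 2.49 in the VprBP-labelled libraries, and Id2 31.1% ± 6.86 and 57.1% ± 8.92.

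**Figure D4:**
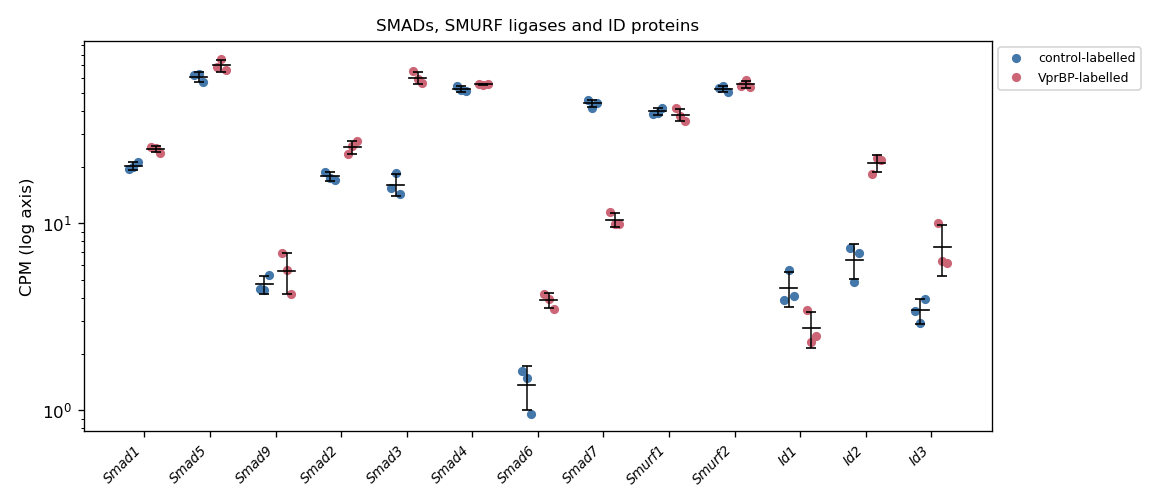
CPM per library (points, log axis) with the group mean and SD (bars) for SMADs, SMURF ligases and ID genes. Smad3, Smad6, Id2 and Id3 lie higher in the VprBP-labelled libraries, Smad7 and Id1 lower, and Smad9, Smurf1 and Smurf2 overlap.

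**Figure D5:**
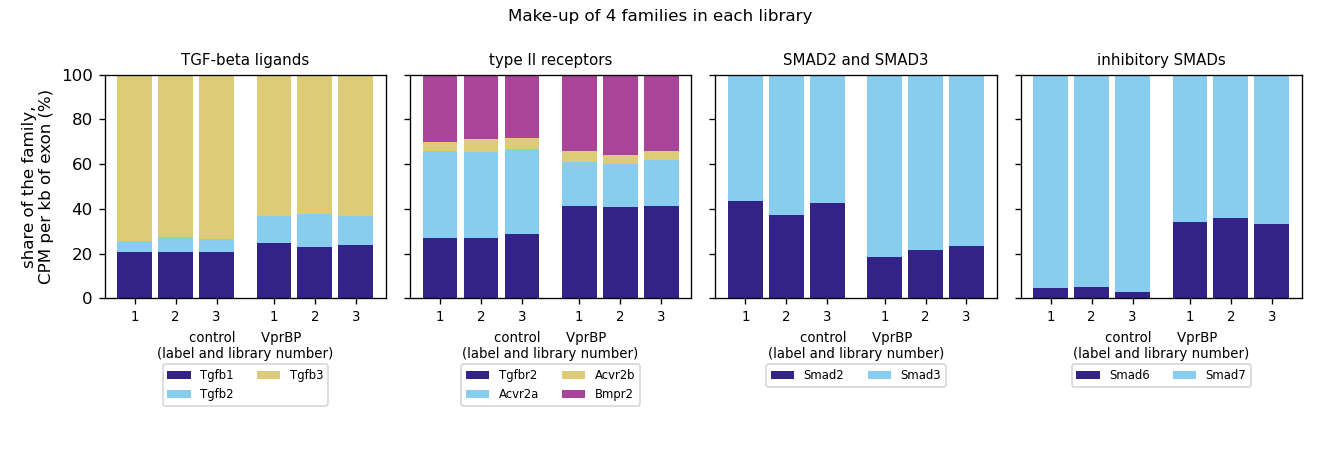
Share of each gene in the summed CPM per kilobase of its family (y axis, percent) in each library. The Smad7 share is 95.2% to 97.04% in the control-labelled and 64.0% to 66.9% in the VprBP-labelled libraries, and the shares of Tgfb2, Tgfbr2 and Smad3 are larger in all 3 VprBP-labelled libraries than in any control.

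Of the genes that match by name only, Bmp1, the protease that trims procollagens and also cleaves LTBP1 and chordin, stood at 85.4, 96.4 and 96.8 CPM (control-labelled) and 220.3, 192 and 196 CPM (VprBP-labelled). It was 2.19-fold higher (log2 difference 1.13, SE 0.06, edgeR adjusted p = 1.24e-11). Tgfbi, an adhesion protein of the matrix named for its induction by TGF-beta, had 0 counts in each control-labelled library and 4.31, 5.02 and 3.81 CPM in the VprBP-labelled libraries (edgeR adjusted p = 9.39e-09). Set against 3 counts over the control group, it was at least 78.4-fold higher. Tgfbi passed the filter on low counts through the VprBP-labelled libraries alone, so its direction was set by the filter. Tgfbrap1, a subunit of an endosomal tethering complex, stood at 42.8, 48.3 and 45.4 CPM (control-labelled) and 34.5, 35.3 and 31.03 CPM (VprBP-labelled), and was 1.35-fold lower (log2 difference -0.43, SE 0.08, edgeR adjusted p = 6.63e-05). Bmp2k, a kinase of endocytosis, stood at 15.3, 15.7 and 17.7 CPM (control-labelled) and 11.3, 13.6 and 13.2 CPM (VprBP-labelled). It was 1.28-fold lower (log2 difference -0.36, SE 0.12, edgeR adjusted p = 0.0128), with 14.0% of its exon length shared with Paqr3 on the other strand. The Bmp2k call was lost without VprBP-labelled library 1 or with scaling by library size only (edgeR adjusted p = 0.0694 and 0.0818, with 0.00846 to 0.0818 over the 13 alternatives). Tgfb1i1, an adaptor of focal adhesions, was low and not called (1.17 ± 0.230 and 1.95 ± 0.603 CPM, edgeR adjusted p = 0.107).

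Of the members, 4 pairs are neighbours on a chromosome, with no other protein-coding gene between them in GENCODE M21. Tgfbi and Smad5 lie 63.4 kb apart on chromosome 13, and their changes were unlike, from no counts for Tgfbi and by 0.20 on the log2 scale for Smad5. Acvrl1 and Acvr1b lie 28.7 kb apart on chromosome 15 and were higher by 0.54 and 0.18. Smad3 and Smad6 lie 195 kb apart on chromosome 9 and were higher by 1.90 and 1.50. Acvr1 lies 30.7 kb from Acvr1c on chromosome 2 and was higher by 1.14. Acvr1c was too low to be tested, with 8 counts in the control-labelled and 32 in the VprBP-labelled libraries. Smad7 and Smad2 lie farther apart on chromosome 18, 846 kb with 2 protein-coding genes between, and Smad2 was higher while Smad7 was lower.

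Of 87 other genes of the pathway and its common targets, 68 have a row and 59 were tested, of which 32 were higher, 22 lower and 5 not called, with a median log2 difference of 0.23. Among all tested genes 37.9% were higher and 37% lower. Acta2, Atoh8, Ldlrad4 and Lefty2 had no control-labelled library at the level that the filter on low counts asks for, and Gdf9 and Tagln no VprBP-labelled one, so the direction of these 6 was set by the filter. Among other secreted regulators, 9 of 12 tested were higher and 3 lower (median 0.46). Kcp, a secreted BMP modulator, rose 23.4-fold from 0.878 ± 0.338 to 20.99 ± 0.866 CPM, Thbs1, which can activate latent TGF-beta, 3.16-fold from 12.6 ± 0.407 to 39.7 ± 0.619 CPM, and Crim1, which binds BMPs, 1.94-fold from 67.7 ± 3.61 to 132 ± 9.31 CPM. The BMP antagonist Chrd rose 2.03-fold from 5.65 ± 1.03 to 11.4 ± 1.33 CPM. Nrros, which anchors latent TGF-beta on myeloid cells, fell 2.41-fold from 18.3 ± 3.12 to 7.57 ± 0.486 CPM. Each of these 5 had an edgeR adjusted p of 2.57e-05 or less.

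Other ligands and co-receptors were higher in 8 and lower in 5 of 13 tested (median 0.66), where the background is 37.9% higher and 37% lower. Gdf11, a ligand of the activin branch, rose 11.6-fold from 7.33 ± 1.21 to 83.8 ± 5.28 CPM (edgeR adjusted p = 1.14e-15). Gdf15, a stress-induced hormone that signals through another receptor, fell 3.60-fold from 257 ± 16.1 to 71.4 ± 1.92 CPM (edgeR adjusted p = 2.03e-15). Eng (endoglin), the co-receptor that works with ACVRL1, rose 1.81-fold from 459.7 ± 12.1 to 833 ± 21.3 CPM (edgeR adjusted p = 9.73e-13). The BMP co-receptors Rgma and Rgmb rose 2.06-fold and 1.58-fold (edgeR adjusted p = 1.67e-08 and 5.54e-08).

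Intracellular regulators were split, with 9 higher, 8 lower and 3 not called of 20 tested (median -0.00). That is near the background of 37.9% higher and 37% lower over all tested genes. Cited2, a transcriptional cofactor of SMADs among others, rose 8.03-fold from 25.7 ± 2.44 to 207 ± 9.59 CPM (edgeR adjusted p = 4.53e-17). The related SMAD corepressors Ski and Skil differed in direction. Ski rose 2.03-fold from 51.5 ± 0.596 to 105 ± 2.42 CPM, and Skil, itself a TGF-beta target, fell 2.56-fold from 43.8 ± 3.83 to 17.2 ± 1.88 CPM. Tgif1, another corepressor, fell 3.09-fold from 108 ± 0.974 to 35.04 ± 1.22 CPM, and Zfyve16, an endosomal SMAD anchor, 2.26-fold from 103 ± 1.78 to 45.5 ± 2.15 CPM. These 4 had an edgeR adjusted p of 5.16e-10 or less.

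Transcripts that TGF-beta or BMP commonly induces were mixed too, with 7 higher, 8 lower and 2 not called of 17 tested (median -0.44). The background over all tested genes is 37.9% higher and 37% lower, so a mix of directions is not particular to this list. Acta2 and Atoh8 are among the higher and Tagln among the lower, directions that the filter on low counts had set. Col1a1, a fibrillar collagen chain, rose 20.3-fold from 14.9 ± 1.07 to 302 ± 28.1 CPM, Fn1 (fibronectin) 3.06-fold from 446 ± 9.66 to 1365 ± 33.1 CPM and the transcription factor Zeb2 4.42-fold from 53.8 ± 4.76 to 238 ± 7.08 CPM. Ccn1, a matrix signalling protein, fell 3.76-fold from 554 ± 1.51 to 148 ± 8.04 CPM and Junb 2.41-fold from 154 ± 9.49 to 64.03 ± 4.82 CPM. These 5 had an edgeR adjusted p of 2.81e-12 or less. Others that fell were Cdkn1a, Snai2, Tagln and, counted among the intracellular regulators too, Skil and Pmepa1. Many of these genes answer to other pathways as well.

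Markers of other cell types moved with the labels beside these genes. Over all tested genes, 75% were called, 37.9% higher and 37% lower, and the marker lists are short. Of 12 stromal genes, 10 have a row and 9 were tested, 7 higher and 2 lower, and their sum was 96.8 to 107 CPM (control-labelled) and 533 to 595 CPM (VprBP-labelled), with Col1a2 and Thy1 without a row and Lum at 0 and 0.180 CPM. Acta2 and Col3a1 (both at 0 in all control-labelled libraries) and Tagln passed the filter through 1 group alone. Col1a1, which is in the stromal, osteoblast and induced lists, made up much of that sum. Without it the stromal genes summed to 83.1 to 92.2 and 253 to 277 CPM. Of 9 osteoblast genes, 6 have a row and were tested, with 5 higher and 1 not called and sums of 124 to 131 and 443 to 489 CPM, or 109 to 115 and 156 to 173 CPM without Col1a1. Of 10 endothelial genes, 7 have a row, and their sums of 491 to 515 and 932 to 978 CPM were mostly Eng (39.0 to 43.6 and 123 to 131 CPM without it). Of the 4 tested, Vwf, Egfl7 and Eng were higher and Esam, which passed the filter through the control-labelled libraries alone, was lower. Cdh5, which defines endothelial cells, stood at 0 and 0.358 CPM, and Kdr, Tek and Emcn have no row. The part of these markers in the differences above was not tested.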

How the data were processed

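Expected counts per gene were deposited by the authors for 6 libraries, unscaled between them. Per the submitters' processing notes, Partek and mm10 were used. For the aligner, counter, strand setting and annotation release, nothing is given in the sources used here. All 43 members matched GENCODE M21 (GRCm38) by versioned ID, and merged exon lengths come from there. Of the 43, 19 have a value with a fraction (beyond 0.001), and 62.1% to 64.5% of all values in a library are whole.

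The counts were rounded and fitted over the whole table in R 4.3.3 with edgeR 4.0.16 (filterByExpr, TMM, quasi-likelihood F test, group as the only term), with Benjamini-Hochberg adjustment over 14641 genes and calls below 0.05. The fit was also run on simulated counts with few genes changed, evenly up and down, at a single dispersion. Most tested genes are called here, so that run does not test the scaling or the calls of small fold. A standard error is the log2 difference divided by the root of F. Folds are edgeR's and need not equal ratios of means. Replicates differed by more than sampling noise (chi-square per gene 3.15 to 6.04). Alternatives were DESeq2 1.42.0, other scalings and filters, a replicate block and leaving out each library.

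Values per library are printed for members with a mean of at least 10 CPM, or called with at least 2-fold change, and up to 5 other genes per list by smallest p with at least 5 CPM. Id1, outside this rule, was added after its values were seen. Some listed genes are not reported here. Members and lists were chosen with earlier results of these data known.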

Additional observations from a re-analysis of the deposited data

How the results depend on the processing

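The 43 genes gave 29 to 33 calls when a library was left out and 31 to 32 under the other alternatives, against 32, and the other pathway genes 53 to 56 and 48 to 58, against 54. Over all genes the ranges were 10637 to 10774 and 10484 to 11605, against 10974. Of 39 tested members, 30 had the same call and sign under all 13 alternatives. Acvr1b, Id1, Smad5, Bmp2k and Tgfbr1 lost their call, and Acvr2b, Smad4 and Smurf2 gained one, under the alternatives named with them above, and Smurf1, not called, changed sign. Library size scaling shifted the median log2 difference over all genes by 0.12. It gave 28 members higher and 4 lower, against 25 and 7, and 6160 genes higher and 4719 lower, against 5552 and 5422. Under it the Dcaf1 difference was -0.12 and not called. The cause was not tested. Without a library in turn the Dcaf1 difference ran from -0.27 to -0.20.

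Libraries with the same replicate number did not deviate together (r = -0.0324, 0.00664 and -0.0422 across genes). This gave no sign of pairing by number, but so few libraries cannot exclude it. With the replicate block, 32 members, 53 other pathway genes and 10649 genes in all were called, and the Dcaf1 log2 difference was -0.24. Depth limits Inhba, Id1, Id3, Smad6 and Tgfbi among called members and Tgfb1i1, Smad9 and Acvr2b among the others, all with at most 420 counts in either group.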
